A study of Mus musculus with 8 samples.

Results

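Mid-gestation liver cells sorted for the neurotrophin receptor p75NTR were compared with cultured embryonic skin fibroblasts (MEF) on 3 of the 8 arrays of a mouse microarray series. The liver side was the mean of the arrays labelled E13.5 and E14.5, the other side was the single MEF array, and a gene counted as higher or lower only where both liver arrays lay on the same side of MEF. The liver cells came from livers dissociated with collagenase and were the CD45-negative, Ter119-negative and p75NTR-positive fraction of a flow cytometry sort, which leaves out leukocytes and red cells by their surface markers. The MEF label gives skin as the tissue and culture as the source, with no stage. The remaining arrays held p75NTR-positive liver cells at E11.5, E17.5 and postnatal day 1 (P1), adult stellate cells sorted by vitamin A (adult HSC) and purified bone marrow stromal cells (MSC), each on 1 array. Neither a strain nor a number of pooled animals is given in the sources used here. E13.5 and E14.5 are different stages and not replicates, so no group has a spread between animals.

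The fetal liver is the main site of blood formation in mid-gestation, and its mesenchyme, which lies between hepatoblasts, sinusoids and blood cells, includes the precursors of hepatic stellate cells. Stellate cells are pericytes that store vitamin A and supply growth factors to hepatocytes and blood progenitors. Fibroblasts differ by body position, and much of that difference lies in homeobox and T-box transcription factors that are set in the embryo.

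Levels are log2 signals relative to the 75th percentile of the array, so a level of 0 is the brightness of that percentile and a difference of 2 is 4-fold. Between 58.8% and 64.5% of 43020 spots per array were well above background, and 0 were saturated. The arrays of E11.5 to E17.5 share slide 1, while P1, adult HSC, MEF and MSC share slide 2. Slide and side therefore cannot be told apart in the main comparison. The P1 array lies on the slide of MEF, and its values are given beside several results, although P1 minus MEF shares the MEF array and adds no independent fibroblast sample. With 1 array for each stage and cell type, the number of arrays sets how firmly any difference can be read.

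Of 14976 genes compared, 963 were at least 4-fold higher in the liver cells, 6.43% of those compared, and 1218 were at least 4-fold lower, or 8.13%. The median difference over all genes was 0.01. In 389 of the genes called higher MEF was not well above background, and in 536 of those called lower both liver arrays were not. These were also set against the lowest level well above background instead of the measured one. The difference then fell short of 4-fold in 65 of the 389. Of the 536, 528 kept a difference, which fell short of 4-fold in 271, and the rest kept none. Among the 12985 genes above background on all 3 arrays, 567 were higher and 522 lower. For 19.1% of genes the liver arrays lay on opposite sides of MEF, and 0 of those had a mean difference of 4-fold. Between the liver stages, 3.79% of genes differed at least 4-fold, 9.03% were at least 2-fold higher on E14.5 than on E13.5 and 5.68% at least 2-fold lower. The median absolute difference between E14.5 and E13.5 was 0.33, against 0.50 between the liver mean and MEF. A limma fit, whose only residual degree of freedom is the difference between the liver stages, put 556 genes past a Benjamini-Hochberg adjusted p of 0.05, or 3.71%, of which 205 were higher and 351 lower, with 3194 at an unadjusted p under 0.05. It takes MEF to vary as the liver stages did, and its lowest adjusted p was 0.0346. Normexp background correction started from the median spot signals, not the processed ones, and added an offset of 50 to each. With it 597 genes were higher and 297 lower. The share of higher among those called went from 44.2% to 66.8%, and the median of all genes went to 0.25.

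**Figure D1:**
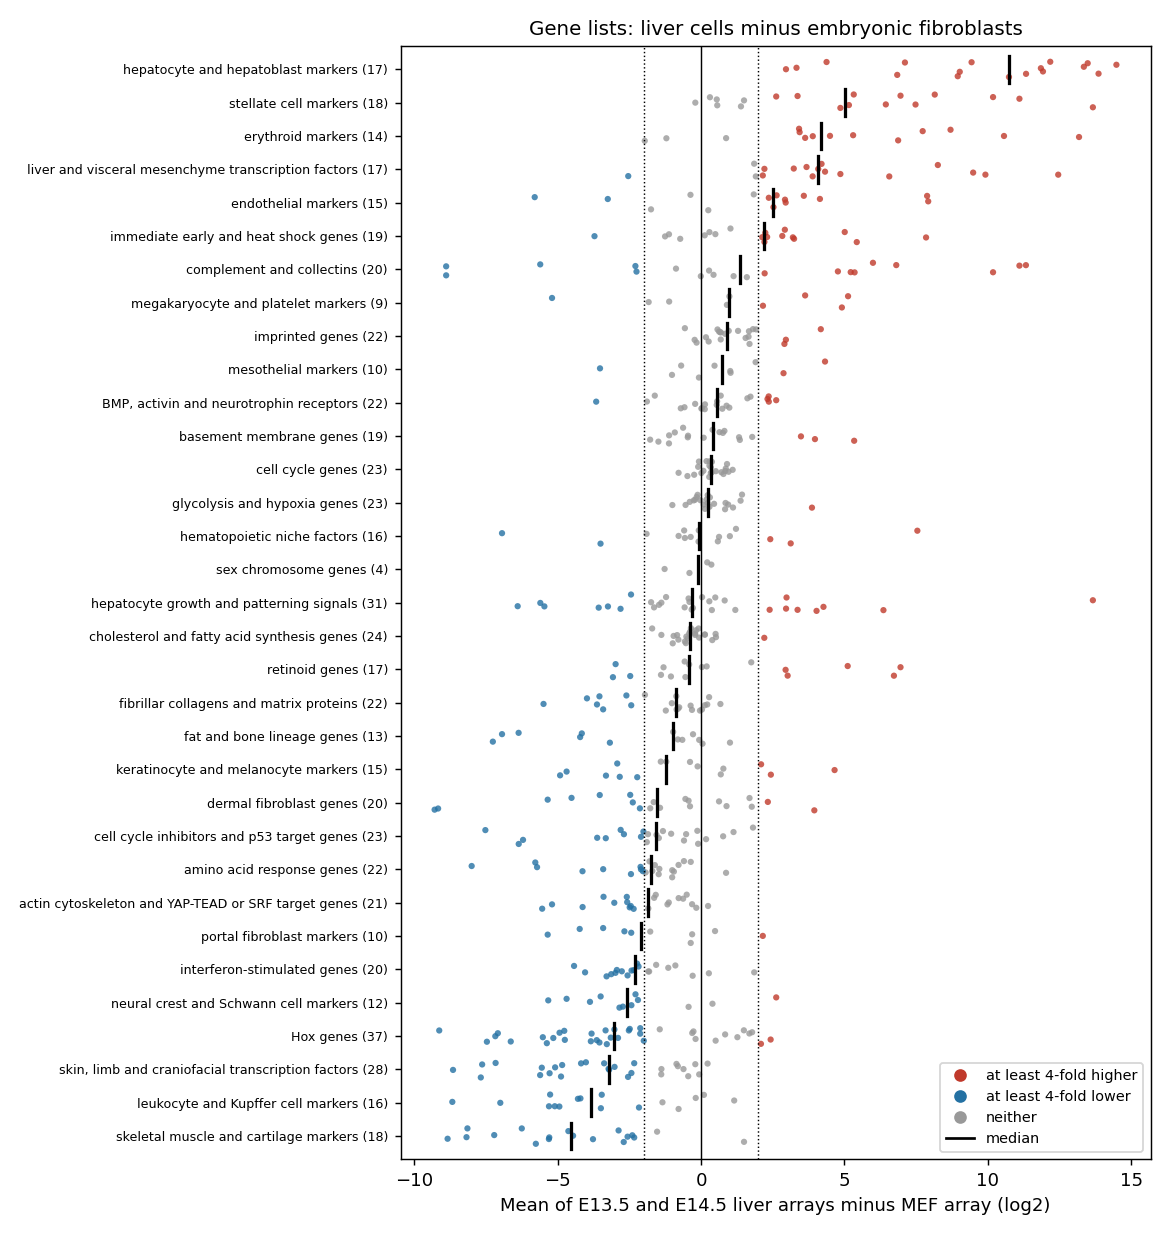
Difference between the mean of the E13.5 and E14.5 liver arrays and the MEF array for each compared gene of 33 lists, on the log2 scale (horizontal axis), with the number of genes in brackets. Each point is a gene, red where it was at least 4-fold higher, blue where at least 4-fold lower and grey otherwise, the black bar is the median of the list, and the dotted lines mark 4-fold. Hepatocyte markers have the highest median, 10.74, and skeletal muscle and cartilage markers the lowest, -4.55.

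The gene for the sorted receptor was brighter on the liver arrays, although MEF carried it as well. Ngfr, which encodes p75NTR, stood at 3.24 on E13.5, 4.75 on E14.5 and 1.37 on MEF. The difference was 2.62 ± 0.78 (limma SE), which did not pass the test (limma adjusted p = 0.20), and it was 1.62 with normexp. Ngfr was the sort criterion on the liver side, so its direction is no finding.

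Of 18 stellate cell markers, all compared, 12 were at least 4-fold higher in the liver cells and 0 lower, with a median of 5.01 against 0.01 over all genes. Ngfr, the sort criterion, is 1 of the 12. Of the 12, 6 passed the limma test. Colec10, a secreted collectin that binds sugars on microbes, stood at 5.32 and 6.37 on the liver arrays and at -5.26 on MEF, 2204-fold apart (limma difference 11.11 ± 0.59 SE, adjusted p = 0.0346). Colec11, its relative, stood at 4.85 and 5.97 against -4.77, or 1164-fold. On MEF both collectins lay near -6.34, the lowest level well above background on that array. Gdf2, which encodes the ligand BMP9, stood at 4.90 and 5.48, while MEF was not well above background, so the difference was at least 2941-fold. Reln, the secreted glycoprotein reelin, stood at -0.66 and 0.78 and was at least 84.2-fold higher. Lrat, the enzyme that esterifies retinol for storage, stood at -1.89 and 0.61, while MEF was not well above background (at least 51.8-fold higher). It did not pass the limma test (adjusted p = 0.084), and it differed more between the stages than the other 4 genes named here.

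The 6 stellate markers without a 4-fold call were Des, Cygb, Pth1r, Ecm1, Rgs5 and Pdgfrb, with differences from -0.20 to 1.50. Des, the muscle and stellate cell filament desmin, stood at -0.13 and -0.31 against -1.71 on MEF, a difference of 1.50. Pdgfra, a platelet-derived growth factor receptor of fibroblasts, stood at 3.19 and 2.75 against 2.08, a difference of 0.89. Pdgfra is not in the stellate list.

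Hepatocyte RNA was bright on the liver arrays beside these markers. All 17 hepatocyte and hepatoblast markers compared, of 19 listed, were at least 4-fold higher in the liver cells, with a median of 10.74. Their summed signal, in multiples of the 75th percentile, was 470 on E13.5, 1498 on E14.5 and 3.59 on MEF, against 200.1, 430 and 43.6 for the stellate markers. Alb, which encodes albumin, stood at 5.55 and 7.19, and MEF was not well above background (at least 6679-fold higher in the liver cells). Ambp, a precursor of plasma proteins, stood at 5.39 and 7.19 (at least 6324-fold), and Ahsg, fetuin, at 4.75 and 7.10 (at least 4902-fold). Afp, the fetal serum protein, stood at 6.82 and 7.65 against -3.51, or 1711-fold. Serpina1a, a serum protease inhibitor with close copies whose probes may share signal, stood at 6.45 and 8.14, and its brightest probe was not well above background on MEF at -6.06. The hepatocyte markers were brighter on E14.5 than on E13.5 by a median of 2.11, and the stellate markers by 1.20. The part of hepatocyte RNA in any difference below was not tested. In bulk samples, fewer cells of a type and less RNA per cell cannot be told apart.

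Genes of red cells were also bright in spite of the Ter119 gate. Of 14 erythroid markers compared, of 16 listed, 11 were higher and 0 lower, with a median of 4.20. Hbb-bt, an adult beta globin, stood at 4.59 and 4.82 and was at least 2110-fold higher than on MEF. Gata1, the erythroid and megakaryocyte transcription factor, stood at 0.25 and -1.14, at least 59.3-fold higher. The summed signal of the list was 47.8 on E13.5, 57.8 on E14.5 and 1.29 on MEF. Globin genes have near-identical copies, so the probes named for Hba-a1, Hba-a2, Hbb-bt and Hbb-bs may share signal.

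Of 15 endothelial markers compared, of 18 listed, 9 were higher and 2 lower, with a median of 2.52 and summed signals of 47.1, 72.5 and 16.9. Plvap, a protein of endothelial diaphragms, stood at 3.70 and 4.79 against -3.64, or 236-fold, with probe differences from 6.09 to 7.88. Clec4g, a lectin of liver sinusoids, stood at -0.32 and 2.32 and was at least 161-fold higher. Flt1, a receptor for VEGF, went the other way, with -3.65 and -2.25 against 2.86 on MEF, or 55.9-fold lower. With normexp, 3 of the endothelial markers were higher and 1 lower. Of 9 megakaryocyte markers compared, of 11 listed, 4 were higher and 1 lower. Gp9 and Gp1ba, subunits of a platelet receptor, were at least 15.0-fold and at least 8.51-fold higher.

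Transcription factors listed for liver and visceral mesenchyme were mostly higher in the liver cells. Of 17 compared, of 18 listed, 14 were at least 4-fold higher and 1 lower, with a median of 4.09, and 9 passed the limma test. Lhx2, a LIM homeobox factor of stellate cells, stood at 4.92 and 4.86 against -4.60, a difference of 9.49 ± 0.32 (limma SE, adjusted p = 0.0346), or 719.7-fold. Gata4, a zinc finger factor of heart and liver mesenchyme, stood at 3.68 and 3.16, while MEF was not well above background (at least 865-fold higher). Neither was brighter on E14.5 than on E13.5. Nr1h5, a nuclear receptor, stood at 4.02 and 4.26 and was at least 1425-fold higher. Tcf21, a factor of visceral mesenchyme and the epicardium, stood at 0.60 and 0.998 (at least 140.3-fold higher). Wt1, the zinc finger factor of mesothelium and its derivatives, stood at 3.48 and 2.32 against -1.42, and it is among the mesothelial markers too. The list also holds Hhex and Prox1, which hepatoblasts express. The part of hepatoblasts and mesothelium in the counts of this list was not tested. The lower member was Foxf2, a forkhead factor of gut and craniofacial mesenchyme, at -6.27 and -6.10, both not well above background, against -3.64. The median of this list was -0.06 for E14.5 minus E13.5. On the slide of MEF, the median of P1 minus MEF was 3.91.

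**Figure D2:**
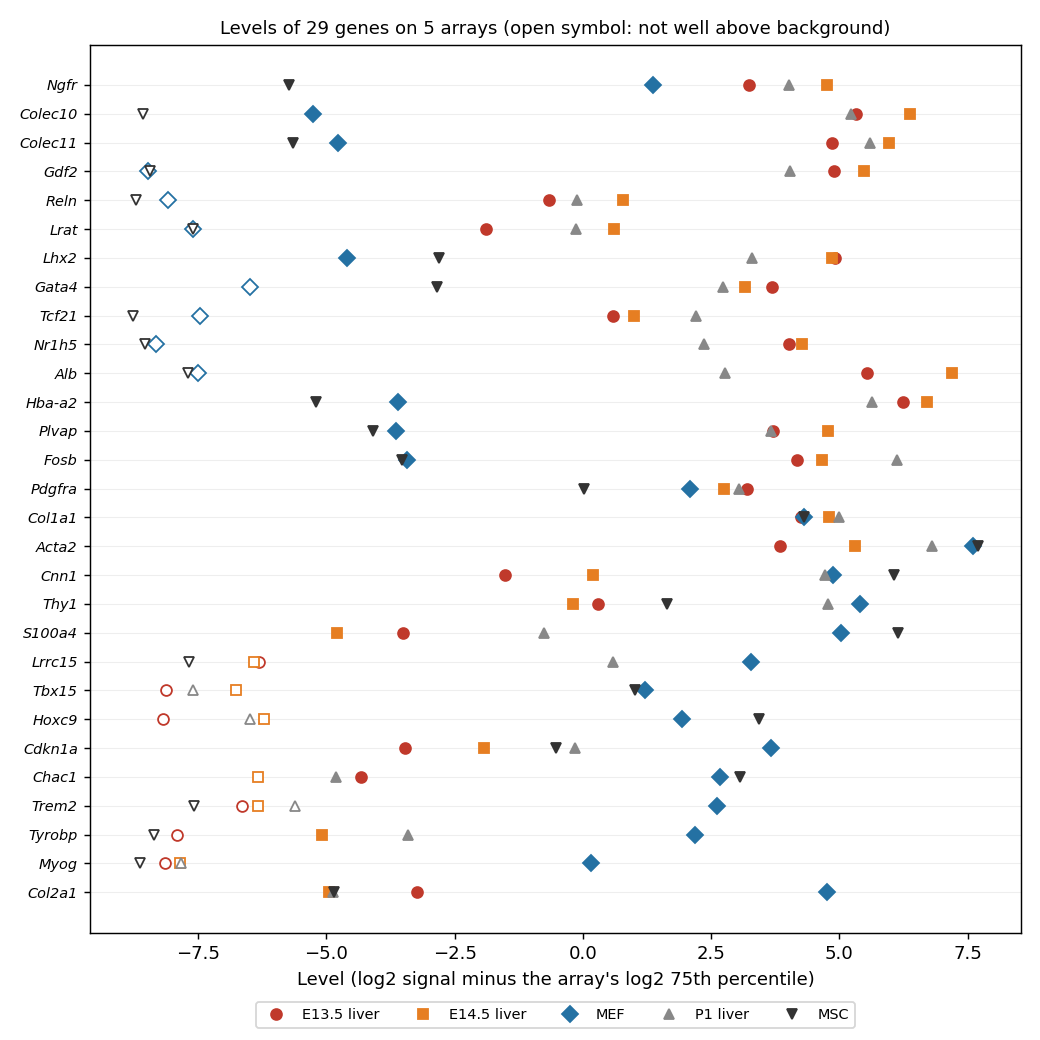
Levels of 29 genes on the E13.5 liver, E14.5 liver, MEF, P1 liver and MSC arrays, as log2 signal minus the log2 75th percentile of the array (horizontal axis), 1 array per symbol. Open symbols were not well above background. Colec10 to Nr1h5 lie to the right on the 3 liver arrays, Col1a1 lies within 4.26 and 4.99 on all 5, and Thy1 to Col2a1 lie furthest right on MEF or MSC.

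Outside the lists, the genes with the largest differences above background on all 3 arrays included hepatocyte products on the liver side. Apom, an apolipoprotein, stood at 4.04 and 6.14 against -5.18, Vtn, vitronectin, was 494-fold higher, and Serpinc1, antithrombin, 632-fold. Nr1h4, a bile acid receptor, stood at 2.65 and 3.75 against -5.78, or 506-fold. Art4, a surface protein of blood cells, was 518-fold higher by its brightest probe, with probe differences from 6.58 to 9.02, and Hpca, a calcium sensor, 701.8-fold, although the probes of Hpca gave differences from 2.65 to 9.45. The MEF levels of Apom, Vtn, Serpinc1, Nr1h4, Art4 and Hpca ran from -6.15 to -5.18, near -6.34, the lowest level well above background there. On the MEF side, Ly6c1, a surface protein, stood at -5.45 and -3.93 against 4.12, or 448-fold lower. Its probes gave differences from -8.81 to -5.62. Cxcl14, a chemokine of skin, was 251-fold lower. For Apod, an apolipoprotein, the probes gave differences from -7.94 to -4.10. Podn, a small proteoglycan, was 121-fold lower, and Irx1, an Iroquois homeobox factor, 103-fold.

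Factors of skin, limb and craniofacial mesenchyme showed the reverse. Of 28 compared, of 30 listed, 19 were at least 4-fold lower in the liver cells and 0 higher, with a median of -3.22, and 7 passed the limma test. Tbx15, a T-box factor of skin and limb mesenchyme, stood at 1.21 on MEF and was not well above background on either liver array (at least 139.3-fold lower). Pax1, a paired box factor of the axial skeleton, stood at 0.07 on MEF (at least 63.5-fold lower), and Foxd1, a forkhead factor, at -0.52 (at least 42.0-fold lower). Of all 30 listed, 28 were above background on MEF and 18 on each liver array, counting any probe of a gene. With normexp 5 of the list were lower and 0 higher. Of the 19 called lower, 9 were not well above background on either liver array and have only a bound, which fell short of 4-fold in 1. Such genes were compared only if MEF was above background, so the filter in part fixes the direction.

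Hox genes, the homeobox genes that record position along the body axis, differed by paralog number. Of 37 compared, of 39 listed, 25 were lower in the liver cells and 2 higher, with a median of -3.03, and the median turned to 0.67 with normexp, under which 4 were lower and 0 higher. Among paralogs 1 to 5, the anterior genes, 2 of 13 were higher and 3 lower, with a median of 0.84. Hoxb4 stood at 2.34 and 1.78 against -0.03, and Hoxa4 at -1.10 and -2.23 against -4.09, the pair called higher, chosen after their values were seen. Among paralogs 6 to 8, all 8 compared were lower, with differences from -5.38 to -2.49. Among paralogs 9 to 13, 14 of 16 were lower and 0 higher, with a median of -4.85. Of the 14, Hoxb13, Hoxd12 and Hoxd13 were not well above background on either liver array and are bounded only at 3.27-fold, 1.22-fold and 2.35-fold lower. All 16 were above background on MEF and 1 on both liver arrays. Genes not above background on both liver arrays were compared only if MEF was, so the filter in part fixes this contrast. Hoxc9 stood at 1.94 on MEF and was not well above background at E13.5 or E14.5 (at least 232-fold lower). Hoxa10 and Hoxa11 stood at -0.48 and -0.42 on MEF and were at least 43.3-fold and at least 45.2-fold lower. Hoxb9 stood at -6.68 and -4.42 against 1.54, and only its E14.5 value was above background.

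**Figure D3:**
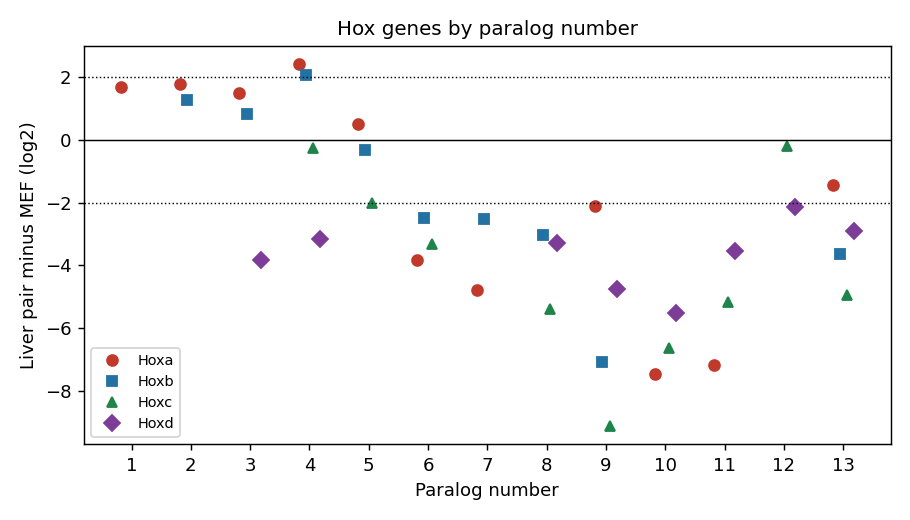
Difference between the mean of the E13.5 and E14.5 liver arrays and the MEF array (log2, vertical axis) for 37 Hox genes by paralog number (horizontal axis) and cluster (colour and shape). Dotted lines mark 4-fold. Every point at paralogs 6 to 13 lies below 0, between -9.14 and -0.19, while those at paralogs 1 to 5 lie between -3.85 and 2.43.

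Among secreted signals that act on hepatocytes and on patterning, 8 of 31 compared, of 33 listed, were higher in the liver cells and 7 lower, with a median of -0.33 that turned to 0.89 with normexp. On the liver side were Gdf2 and Bmp10, related ligands of the bone morphogenetic protein family. Bmp10 stood at -2.67 and -1.55 and was at least 18.7-fold higher. Hgf, the hepatocyte growth factor, stood at 0.12 and 1.23 against -2.69. On the MEF side were Fgf7, a growth factor for epithelia, at -5.17 and -4.98 against 1.32, 84.5-fold lower (limma difference -6.40 ± 0.33 SE, adjusted p = 0.0346). Grem1, a secreted antagonist of bone morphogenetic proteins, stood at -3.05 and -4.43 against 1.87, or 48.8-fold lower. Of 22 receptors for these ligands and for neurotrophins compared, of 23 listed, 4 were higher and 1 lower. Those higher were Ngfr, Eng, Ntrk3 and Acvr2b, the last chosen after its values were seen, and with normexp 0 reached 4-fold higher. Eng, endoglin, a co-receptor for BMP9, stood at 1.92 and 2.37 against -0.22. Acvrl1, the type I receptor for the same ligand, was the lower one, at -4.02 and -2.99 against 0.15.

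Of 16 hematopoietic niche factors compared, of 17 listed, 3 were higher and 2 lower, with a median of -0.09 that turned to 0.38 with normexp. Thpo, thrombopoietin, which drives platelet formation, stood at -5.47 and -5.59 and was at least 1.75-fold higher. Cxcl12, the chemokine that holds blood stem cells, was also higher, at 6.38 and 6.72 against 4.14, and was chosen after its values were seen. Spp1, osteopontin, stood at -0.45 on MEF and was at least 44.1-fold lower in the liver cells. Il6, an inflammatory cytokine, stood at -8.15 and -4.22 against -2.67, and its difference turned from -3.51 to 0.81 with normexp.

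Retinoid genes did not move as a group. Of 17 compared, of 19 listed, 5 were higher and 3 lower, with a median of -0.42 that turned to 0.13 with normexp. Rbp4, the plasma carrier of retinol, stood at 5.21 and 6.77 against -0.73, or 106-fold. Rarb, a retinoic acid receptor, stood at 3.95 and 3.71 against -1.28, a difference of 5.11 ± 0.34 (limma SE, adjusted p = 0.0346). Adh1, an alcohol dehydrogenase that oxidizes retinol, stood at -3.72 and -0.49 against 0.97.

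Col1a1, a chain of collagen I, stood at 4.26 and 4.79 against 4.31, a difference of 0.21 ± 0.41 (limma SE, adjusted p = 0.81). Of 22 fibrillar collagens and matrix proteins compared, of 24 listed, 7 were lower in the liver cells and 0 higher, with a median of -0.86. Lox, which crosslinks collagen and elastin, stood at -1.09 and -0.60 against 3.14, or 15.8-fold lower. Timp1, an inhibitor of matrix proteases, stood at 1.44 and 0.91 against 4.81, or 12.4-fold lower. Mmp13, a collagenase, stood at -2.67 on MEF and was at least 9.48-fold lower in the liver cells, though its difference turned to 0.48 with normexp, as that of Mmp3 turned to 1.27. Of 19 basement membrane genes compared, of 21 listed, 3 were higher and 0 lower, with a median of 0.40 that turned to -0.24 with normexp. Lama1, a laminin chain of embryonic basement membranes, stood at 3.76 and 4.52 against -1.20, or 40.5-fold (limma difference 5.34 ± 0.48 SE, adjusted p = 0.0404). Frem1, a protein that anchors epithelium, stood at 2.41 and 2.27 against -1.14. For Col4a4, a collagen IV chain, the probes of the gene gave differences from 0.40 to 3.97.

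Fibroblast genes differed one by one. Of 20 dermal fibroblast genes, 8 were lower in the liver cells and 2 higher, with a median of -1.54. S100a4, also called fibroblast-specific protein, stood at -3.51 and -4.79 against 5.03, or 578-fold lower (limma difference -9.18 ± 0.68 SE, adjusted p = 0.0350). Ly6a, the surface protein Sca-1, stood at 3.18 on MEF and was at least 548-fold lower. Thy1, a surface protein of fibroblasts and portal mesenchyme, stood at 0.29 and -0.19 against 5.40, or 40.9-fold lower, and it stood at 4.78 on P1. Lum and Col14a1, matrix proteins of connective tissue, were the pair that was higher, by 2.33 and 3.95, and were chosen after their values were seen. Dpt, dermatopontin, stood at -3.36 on MEF and was at least 5.89-fold lower, but its difference turned to 0.98 with normexp. Lrrc15, a membrane protein of activated fibroblasts, had the highest MEF level among genes below background on both liver arrays, 3.27, and was at least 583-fold lower. Of 10 portal fibroblast markers compared, of 11 listed, 5 were lower and 1 higher, with a median of -2.11. The median of P1 minus MEF for those markers was 2.03. Gas6, a ligand of Axl-family receptors, stood at 1.15 and -0.07 against 4.78 on MEF and at 5.10 on P1.

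The YAP-TEAD and SRF factors respond to actin and tension. Of 21 contractile genes and targets of these factors compared, of 24 listed, 10 were lower in the liver cells, 0 were higher and 11 were neither, with a median of -1.84, and 1 passed the limma test. Acta2, smooth muscle actin, stood at 3.85 and 5.30 against 7.60, a difference of -3.03 ± 0.75 (limma SE, adjusted p = 0.15). Cnn1, calponin, stood at -1.53 and 0.20 against 4.88, or 46.7-fold lower. Thbs1, thrombospondin, which was the member past the test, stood at -0.13 and 0.59 against 5.43, or 36.8-fold lower. Ccn2, a matricellular protein and YAP target, stood at 0.999 and 1.49 against 4.65, or 10.6-fold lower. MEF held the highest value of each of these genes among the 3 arrays. On P1, Acta2 stood at 6.81 and Cnn1 at 4.72, and the median of P1 minus MEF over the list was -0.49.

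The Acta2 promoter is shown because the gene was among the brightest of the list and its window holds a TEAD site. The sequence is from RefSeq (GRCm38.p6, chr19:34255374-34255623, minus strand, 250 bases that end at the base before the transcription start), with the letters GGAATG in capitals, searched on both strands.
Acta2: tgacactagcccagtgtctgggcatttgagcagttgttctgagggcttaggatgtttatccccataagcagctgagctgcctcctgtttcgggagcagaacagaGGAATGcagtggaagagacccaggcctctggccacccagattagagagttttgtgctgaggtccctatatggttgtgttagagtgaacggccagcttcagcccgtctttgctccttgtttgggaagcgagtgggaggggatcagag
The match lay 146 bases before the start. GGAATG was in 10 of 16 promoters of the list that matched the table, and in 12.6% of all 27025 promoters of the same length. Of the called-lower members with a promoter in the table, 3 of 5 held GGAATG. The SRF CArG box was searched only in its strict form, CCWWWWWWGG, where W is A or T. That form was in 0 of the 5, in 3 of 16 promoters of the list and in 1.40% of all. Looser forms of the box were not searched, so Acta2 and the others are not shown to lack one. A match describes letters and is not shown to be a binding site.

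Cells switch on the amino acid response when amino acids run short. Of 22 genes of this response, all compared, 9 were lower in the liver cells, 0 were higher and 13 were neither, with a median of -1.75, and 2 passed the limma test. Chac1, which degrades glutathione and is induced by ATF4, stood at -4.32 on E13.5, was not well above background on E14.5 at -6.34, and stood at 2.67 on MEF. Trib3, a pseudokinase of the same response, stood at -1.65 and -2.64 against 3.58, or 52.8-fold lower (limma difference -5.72 ± 0.57 SE, adjusted p = 0.0434). Fgf21, a stress hormone, stood at -2.25 on MEF and was at least 12.7-fold lower, but its difference turned to 0.39 with normexp. Atf4 itself, the transcription factor of the response, stood at 6.20 and 6.17 against 6.55. Chac1, Trib3 and Slc7a3, an amino acid transporter at -3.36 and -4.12 against 0.40, had the largest differences above background on MEF and at least 1 liver array. Chac1 stood at 3.06 and Trib3 at 2.49 on the MSC array.

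The promoters of Chac1 and Fgf21 are shown because both genes were lower and both windows hold the core of the amino acid response element, TGATGNAA. They are from RefSeq (GRCm38.p6), Chac1 at chr2:119350992-119351241 on the plus strand and Fgf21 at chr7:45615491-45615740 on the minus strand, with the match in capitals, here as its reverse complement.
Chac1: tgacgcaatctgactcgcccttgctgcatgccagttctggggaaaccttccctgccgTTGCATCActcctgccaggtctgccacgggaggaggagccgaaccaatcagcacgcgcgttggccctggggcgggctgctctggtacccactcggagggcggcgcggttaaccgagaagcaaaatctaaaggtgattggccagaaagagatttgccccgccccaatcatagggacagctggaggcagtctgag
Fgf21: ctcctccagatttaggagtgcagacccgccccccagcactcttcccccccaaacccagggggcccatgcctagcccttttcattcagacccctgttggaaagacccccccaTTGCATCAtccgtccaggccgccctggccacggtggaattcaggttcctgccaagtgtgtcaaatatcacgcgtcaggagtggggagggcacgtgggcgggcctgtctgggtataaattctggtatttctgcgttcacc
The matches lay 193 and 139 bases before the start. The core was in 5 of 19 promoters of the list, in 3 of 7 of its called-lower members and in 3.53% of all promoters.

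Cell cycle inhibitors and p53 targets were lower in the liver cells for 9 of 23 compared, of 24 listed, and higher for 0, with a median of -1.56. Cdkn2b, an inhibitor of cyclin-dependent kinases, stood at -5.38 on E13.5, was not well above background on E14.5 at -5.77, and stood at 1.95 on MEF. Cdkn2a, which encodes p16 and p19ARF, stood at -5.76 and -5.03 against 0.82, and only E14.5 was above background on the liver side, with probe differences from -6.21 to -4.66. Cdkn1a, which encodes p21, stood at -3.47 and -1.92 against 3.67, or 82.3-fold lower, and Pmaip1, a p53 target that promotes cell death, was 12.3-fold lower. Among cell cycle genes, 0 of 23 compared, of 27 listed, were called in either direction, against 14.6% of all genes compared. Their median was 0.34 and turned to -0.30 with normexp. Pcna, the replication clamp, stood at 4.27 and 4.45 against 3.40, and Ccne1, a cyclin of S phase entry, at 4.18 and 4.02 against 3.00.

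Interferon-stimulated genes act in antiviral defence. Of 20 compared, of 22 listed, 12 were lower in the liver cells and 0 higher, with a median of -2.29. Against MEF the median was -3.31 for E13.5 and -1.17 for E14.5, so the list was 2.02 brighter on E14.5 by its median. With normexp 3 were lower and 0 higher. Isg15, a ubiquitin-like protein, stood at 0.53 and 3.36 against 4.51. Ifit1, which binds viral RNA, stood at -5.38 and -3.24 against -1.01. Ifi44, an interferon-induced protein, stood at -8.33 and -5.35 against -2.41, and its difference turned to 0.47 with normexp. The 1 member past the limma test was Apol9a, at -2.75 and -3.39 against 0.98 (adjusted p = 0.0478).

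The promoters of Isg15 and Ifit1 are shown because both carry repeats of the interferon response element, searched as GAAA, any 2 bases and GAAA again on both strands and shown in capitals. They are from RefSeq (GRCm38.p6), Isg15 at chr4:156200819-156201068 on the minus strand and Ifit1 at chr19:34640639-34640888 on the plus strand.
Isg15: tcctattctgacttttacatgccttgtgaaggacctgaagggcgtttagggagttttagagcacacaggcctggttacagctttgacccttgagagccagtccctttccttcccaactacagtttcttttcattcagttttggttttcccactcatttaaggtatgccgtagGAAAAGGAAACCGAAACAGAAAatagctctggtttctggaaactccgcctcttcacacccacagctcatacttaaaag
Ifit1: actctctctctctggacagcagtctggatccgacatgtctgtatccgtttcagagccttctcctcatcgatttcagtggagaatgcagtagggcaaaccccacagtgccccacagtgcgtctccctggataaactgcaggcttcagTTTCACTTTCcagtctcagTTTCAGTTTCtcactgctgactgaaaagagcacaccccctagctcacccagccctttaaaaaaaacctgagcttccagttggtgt
Isg15 held 3 overlapping matches, of which the first began 78 bases before the start. Ifit1 held 2, which began 104 and 85 bases before it. The element was in 9 of 15 promoters of the list, in 5 of 9 of its called-lower members and in 3.04% of all promoters.

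Of 19 immediate early and heat shock genes compared, of 22 listed, 11 were higher in the liver cells and 1 lower, with a median of 2.21. Fosb, a subunit of AP-1, stood at 4.18 and 4.67 against -3.42, or 230-fold (limma difference 7.85 ± 0.39 SE, adjusted p = 0.0346). Hspa1a, an inducible chaperone whose near-identical copy may share signal, stood at 2.41 and 2.85 against -2.80, or 43.1-fold. Fos stood at 3.51 and 4.54 against -0.99. The lower member was Fosl1, another AP-1 subunit, at -5.96 and -5.40 against -1.96, which turned to a difference of 0.34 with normexp. The liver cells went through collagenase and a sorter, whereas MEF were grown in culture, so the handling cannot be told apart from the tissue.

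The counts of the next 3 lists are small beside the shares over all genes compared, 6.43% higher and 8.13% lower. Of 24 cholesterol and fatty acid synthesis genes, 1 was higher and 0 lower. The median was -0.37. Of 23 glycolysis and hypoxia genes compared, of 24 listed, 1 was higher and 0 lower. That was Pdk1, which restrains entry of pyruvate into mitochondria, at -1.41 and -2.37 against -5.76. Of 22 imprinted genes compared, of 25 listed, 3 were higher and 0 lower, with a median of 0.90 against 0.01 over all genes. They were Phlda2, a regulator of placental growth, at -2.13 and -1.45 against -5.97, with Peg10 and Nnat, 7.77-fold and 7.50-fold higher. Xist, transcribed from the inactive X, stood at -0.79 and -0.55 against -1.03, and the Y-linked Ddx3y at -0.24 and -0.78 against -0.10. Both genes were above background on all 3 arrays.

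The MEF array carried markers of cells other than fibroblasts. Of 18 skeletal muscle and cartilage markers compared, of 22 listed, 16 were lower in the liver cells and 0 higher, with a median of -4.55. Myog, a muscle regulatory factor, stood at 0.16 on MEF and was at least 67.2-fold lower, and Chrna1, a subunit of the muscle acetylcholine receptor, stood at 0.19 (at least 68.8-fold by its brightest probe, with probe differences from -7.22 to -4.74). Col2a1, the cartilage collagen, stood at -3.23 and -4.94 against 4.76, or 459.8-fold lower. Of all 22 listed, 18 were above background on MEF and 10 on each liver array, counting any probe of a gene. Their summed signals were 5.25, 4.80 and 70.3 on E13.5, E14.5 and MEF. With normexp 5 were lower. Of the 16 called lower, 7 were not well above background on either liver array and have only a bound, which fell short of 4-fold in 1. Genes that dim were compared only if MEF was above background, so the filter in part fixes this direction.

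Macrophage genes were also on the MEF side. Of 16 leukocyte and Kupffer cell markers compared, of 18 listed, 11 were lower in the liver cells, which were sorted without CD45, and 0 were higher, with a median of -3.85. Tyrobp, a signalling adaptor of myeloid cells, stood at -7.92 and -5.08 against 2.18. Lyz2, lysozyme of macrophages, stood at -0.64 on MEF and was at least 38.7-fold lower, and Cd14, a co-receptor for bacterial lipopolysaccharide, stood at -1.13 and was at least 27.6-fold lower. Trem2 and Ctss, a myeloid receptor and a lysosomal protease outside the list, stood at 2.62 and 2.10 on MEF and were at least 371-fold and at least 258-fold lower. The summed signal of the list was 3.68, 5.81 and 28.0, and with normexp 3 members were lower. Of the 11 called lower, 6 were not well above background on either liver array and have only a bound. That bound fell short of 4-fold in 2. Members that dim were compared only if MEF was above background. The CD45 gate was applied on the liver side only, so the direction of this list is no finding.

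Of 12 neural crest and Schwann cell markers compared, of 15 listed, 9 were lower and 1, Ngfr, higher, with a median of -2.58 that turned to 0.97 with normexp. For 4 of the 9 the bound fell short of 4-fold. Sox10, a neural crest factor, stood at -6.19 and -3.90 against -0.35. Foxd3 and Tfap2a, factors of the same lineage, were at least 20.6-fold and at least 8.26-fold lower and turned to differences of 0.45 and 0.65 with normexp. Of 15 keratinocyte and melanocyte markers compared, of 19 listed, 6 were lower and 3 higher, with a median of -1.22 that turned to 0.89 with normexp. Krt5, a basal keratin, stood at -1.46 on MEF and was at least 22.0-fold lower, and its difference was 0.024 with normexp. Of 13 fat and bone genes compared, of 16 listed, 6 were lower, among them Aspn, asporin, at least 127-fold, and Omd, osteomodulin, at least 21.9-fold, whose difference turned to 0.028 with normexp. Of 10 mesothelial markers compared, of 12 listed, 2 were higher and 1 lower, and the list was dimmer on E14.5 than on E13.5 by a median of 2.68 in size (E14.5 minus E13.5, -2.68). Against MEF the median of that list was 1.90 for E13.5 and -0.42 for E14.5. Msln, mesothelin, the lower member, stood at -4.10 on E13.5, was not well above background on E14.5 at -6.76 and stood at -1.90 on MEF, and its difference was 0.054 with normexp. The part of these other cell types in the differences was not tested.

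Complement genes lay on both sides. Of 20 complement and collectin genes compared, of 26 listed, 9 were higher in the liver cells and 5 lower, with a median of 1.36. Cfi, a plasma protease made by hepatocytes, stood at 1.94 and 4.19 and was at least 676-fold higher. C1qa, a subunit of C1q made by macrophages, stood at 1.57 on MEF and was at least 179.8-fold lower. The complement list was brighter on E14.5 than on E13.5 by a median of 2.12, beside 2.11 for the hepatocyte markers. The part of hepatocytes and macrophages in these values was not tested.

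The arrays of P1 liver cells and bone marrow MSC share a slide, and neither enters the main comparison. Of the genes called higher against MEF that could be compared there, 693 of 867, or 79.9%, were at least 4-fold higher in P1 than in MSC, against 18.9% of all 14325 genes. The reverse held for 7, or 0.81%. Of the genes called lower against MEF, 217 of 932, or 23.3%, were at least 4-fold lower in P1 than in MSC, against 6.41% of all genes, while 330, or 35.4%, were at least 4-fold higher. Taken as shares of the P1 and MSC lists, the shared genes made up 25.6% of those higher and 23.6% of those lower. These shares come from 1 array on each side, with no test. Among the liver genes above, Colec10 stood at 5.22 on P1 and Tcf21 at 2.20, and neither was well above background on MSC. Among the MEF genes, S100a4 stood at -0.76 on P1 and 6.15 on MSC, and Hoxc9 stood at 3.44 on MSC and was not well above background on P1. Thy1 differed from these, at 4.78 on P1 and 1.64 on MSC, and Myog and Trem2 were not well above background on either. Col2a1 stood at -4.87 on P1 and -4.86 on MSC. With adult HSC in place of P1 the shares were 62.1% of the higher genes, against 15.1% of all, and 44.9% of the lower, against 13.6%, while 21.2% of the lower genes were at least 4-fold higher.

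**Figure D4:**
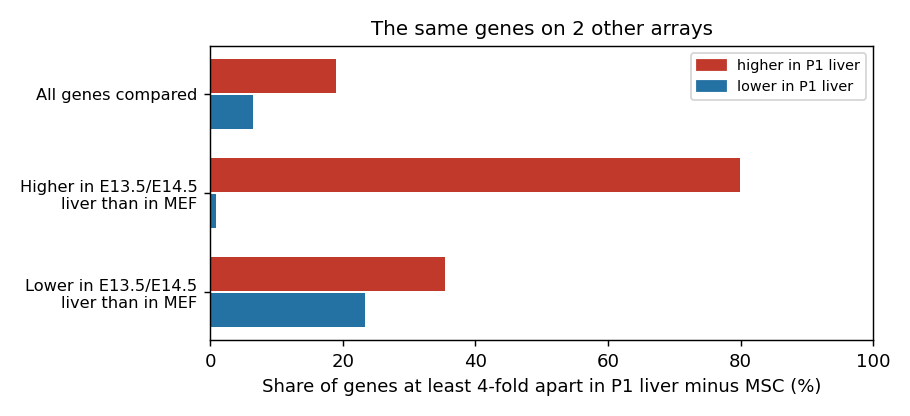
Share of genes at least 4-fold higher (red) or lower (blue) on the P1 liver array than on the MSC array, in percent (horizontal axis), for all genes compared and for the genes higher or lower in E13.5 and E14.5 liver cells than in MEF. The shares are 18.9% and 6.41% for all genes, 79.9% and 0.81% for the higher genes, and 35.4% and 23.3% for the lower genes.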

How the data were processed

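RNA from 8 samples was hybridised to Agilent arrays in 1 colour (Cy3). The scanner files hold intensity values after background subtraction and detrending by Feature Extraction 11.5.1.1, per the file headers. The deposited series table holds the authors' log2 values, whose scale and direction follow the scanner files. Own minus deposited values had a median from -0.15 to -0.10 by array, and after that offset 93.2% to 100.0% of probes matched within 0.02. The authors' column medians ran from -4.48 on MSC to -3.55 on P1.

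Outlier spots were left out, and repeated spots of 1 probe were averaged. Transcript accessions gave gene names through a RefSeq table (26581 of 39429 probes, 20144 genes). Each gene is represented by its brightest probe on average. Genes well above background on both liver arrays or on MEF were compared, and those with a difference of at least 2 (log2), both liver arrays on the same side, were called. "At least" gives the bright mean against the higher of the lowest signal well above background and the measured level. limma 3.58.1 was fitted on the 3 arrays. On simulated data of 14976 genes it recovered 2% of 100 genes raised by 4 and 85% of 100 lowered by 8 (log2). There were 2 false calls among the genes left unchanged. The simulated spread came from the fit itself, was the same for MEF as for liver, and held no slide effect. These rates describe that setting and need not hold for these arrays.

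The comparison, lists and naming rule were chosen with earlier results of these data known. The rule took the 12 highest and 12 lowest genes above background on all 3 arrays, the 6 brightest seen on 1 side only, up to 4 members of each list by size, and Ngfr, Lrat, Des, Tcf21, Acta2, Col1a1, Pdgfra and Xist. Foxf2, Hgf, Atf4, Isg15, Hoxb4, Hoxa4, Hoxc5, Hoxd3, Hoxd4, Hoxb13, Hoxd12, Hoxd13, Cxcl12, Lum, Col14a1, Acvr2b, Cygb, Pth1r, Ecm1, Rgs5 and Pdgfrb were chosen after their values were seen. So were the promoter motifs, kept from a larger set after their matches were seen, with no test. Alternatives were another background correction, other scalings, the authors' table, other filters, folds and probe rules, and leaving out each liver array. Some genes that the naming rule took are not reported here.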

Additional observations from a re-analysis of the deposited data

Results flagged for a closer look

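For 3 genes of the lists the liver stages lay at least 2-fold from MEF on opposite sides, so that their mean hides a difference between E13.5 and E14.5. With 1 array per stage these differences were not tested. C4b, a complement component, was 2.05 higher on E14.5 than on E13.5 (log2), below MEF at E13.5 by -1.04 and above it at E14.5 by 1.02. Nt5e, the ectonucleotidase CD73, was 2.27 higher on E14.5, by -1.08 and 1.18 against MEF. Upk1b, a uroplakin used as a mesothelial marker, differed by -2.99 between E14.5 and E13.5, by 1.42 and -1.57 against MEF. It was not well above background on E14.5.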

How the results depend on the processing

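The numbers of genes higher and lower stayed within 1.5 times of the main counts with median centring, quantile normalization, the authors' table, a floor for levels below background, no filter, the mean of all probes and both liver arrays at least 4-fold from MEF. They were 597 and 297 with normexp, 567 and 522 for genes above background on all 3 arrays, 1859 and 2336 at 2-fold, and 604 and 657 at 8-fold. Leaving out a liver array gave 932 to 1059 higher and 1254 to 1323 lower. The count past the limma test was 59 with normexp, 1291 with median centring, 893 with the floor, 1145 without a filter, 210 for genes above background on all 3 arrays and 1161 with a trended robust prior. The share of higher genes also higher in P1 than in MSC was 38.8% with normexp (8.11% of all genes), 68.6% with median centring (14%), 71.8% with quantile normalization (16.3%), 75.7% with the floor, 76.5% for genes above background on all 3 arrays (16.4%) and 62.1% with adult HSC (15.1%). The share of lower genes also lower was 18.9% with normexp (3.40% of all genes), 31.7% with median centring (20.0%), 26.4% with quantile normalization (7.92%), 17.7% for genes above background on all 3 arrays (5.70%) and 44.9% with adult HSC (13.6%). Leaving out a liver array gave 78.7% to 80.5% and 21.6% to 22.0%.

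Of 135 named genes called, 12 changed direction, each with normexp, and the reason was not tested. They were Dpt 0.98, Mmp13 0.48, Mmp3 1.27, Il6 0.81, Fosl1 0.34, Fgf21 0.39, Ifi44 0.47, Msln 0.054, Krt5 0.024, Foxd3 0.45, Tfap2a 0.65 and Omd 0.028. Normexp added the same offset of 50 to the signals of every array. The 75th percentile of the main processing was a signal of 369.9 on E13.5, 249.2 on E14.5 and 413.2 on MEF. The offset was therefore a larger part of that percentile on both liver arrays than on MEF. The part of the offset in these changes of direction was not tested. In 46 of the 135 the difference fell under 4-fold in at least 1 of 10 alternatives. Among the lists with a median of at least 1 in size, 3 medians turned, also with normexp: Hox genes 0.67, keratinocyte and melanocyte markers 0.89, and neural crest and Schwann cell markers 0.97. Naming by transcript accession alone was not run, since all names here rest on transcript accessions. Without 1 liver array the limma fit has no residual degree of freedom and gives no value. No paired analysis was possible because the labels carry no replicate numbers. Signals near background give bounds only, and slide and side cannot be told apart.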
